A study of Mus musculus with 24 samples.

Results

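Hearts of mice with an NZB nuclear genome were compared with hearts of mice with a C57BL/6 nuclear genome (BL/6J), all carrying the mitochondrial DNA (mtDNA) of C57 mice. Genotypes are written as nucleus, colon, mtDNA, so the groups are NZB:C57 and BL/6J:C57. They were chosen by tissue and genotype from the labels and make up 6 of the 24 libraries of the series, 3 against 3. BL/6J:C57 is a parental combination, and NZB:C57 is a conplastic line, made by 10 generations of backcrossing onto the mtDNA of the other strain, so it differs from BL/6J:C57 in its nuclear genome and in its breeding history. The C57BL/6 and NZB mice came from Harlan. All animals were males aged 10 weeks, 12 per genotype, with no treatment named. Left ventricle RNA with an integrity score of at least 7.9 was pooled in equal parts from 4 animals, which gave 3 pools per genotype, and polyadenylated RNA was sequenced on an Illumina Genome Analyzer IIx. Each pool hides the spread between its animals, and the p-values measure the spread between pools. In the sample titles, mix appears for each BL/6J nucleus and rep for each NZB nucleus, so the nuclear genome and any handling that goes with this naming cannot be told apart.

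The heart draws most of its ATP from fatty acid oxidation in mitochondria, whose respiratory complexes are built from subunits encoded in the nucleus and in mtDNA. Cardiomyocytes spend that ATP on the sarcomere, where myosin motors pull on actin filaments, and on pumping calcium back into the sarcoplasmic reticulum after each beat. NZB mice are an inbred strain known for spontaneous autoimmunity, and they differ from C57BL/6 at many nuclear loci, including the major histocompatibility complex (MHC) and the interferon-inducible Ifi200 genes.

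The NZB:C57 hearts stood apart from the other 9 heart libraries before any test. Recovered reads ran from 3772762 to 7965505 in BL/6J:C57 and from 4750330 to 12949956 in NZB:C57. The 20 genes with the most reads held 33.4% to 34.1% of the NZB:C57 heart reads, against 14.3% in each BL/6J:C57 heart and 11.5% to 14.5% in the 6 hearts on NZB mtDNA. Summed over the 13803 genes tested, the authors' normalised values came to 703290 in BL/6J:C57 and 1058140 in NZB:C57 hearts (means of 3 pools). The 5 genes with the largest rise in value, Myh6, Mb, Actc1, Myl2 and Myl3, held 55.9% of that difference, and the 20 with the largest rise held 78.8%. The scale chosen for the libraries therefore moves every difference: rescaled to equal library totals, the median log2 difference over all genes was -0.52, against 0.01 on the authors' scale. It was -0.19 with totals that leave out the 20 largest genes and -0.12 with quantile normalisation. List medians given below for a rescaling include this shift of all genes, unless the median of all genes is said to be taken off. Values below are on the authors' scale, and differences are on the log2(value + 1) scale, which understates the change of low genes.

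Of 13803 genes tested with limma, 3052 (22.1%) rose and 1813 (13.1%) fell from BL/6J:C57 to NZB:C57 hearts at an adjusted p under 0.05. Higher genes were 62.7% of those called, a split that turned on the scale: they were 15.4% with library totals (1634 higher, 8950 lower), 31.8% with totals that leave out the 20 largest genes and 39.9% with quantile normalisation. The same nuclear genomes compared on NZB mtDNA, in 6 other hearts (NZB:NZB against BL/6J:NZB), gave 2136 higher genes (15.5%) and 1876 lower (13.6%), or 29.1% called in all. Across genes, which are not independent replicates, Pearson's r between these differences was 0.718. Higher in both were 1361 genes (9.86%), which is 44.6% of those higher on C57 mtDNA and 63.7% of those higher on NZB mtDNA. Lower in both were 1066 (7.72%), 58.8% and 56.8% of those lower on C57 and on NZB mtDNA.

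The nuclear difference was not the same on both mtDNAs for 1550 genes (11.2%) in a test of the difference of differences. It was more positive on C57 mtDNA for 1354 of them (9.81% of all genes) and more negative for 196 (1.42%). Of the 1354 genes, 1198 were called higher on C57 mtDNA. The count of 1550 rose to 9135 with library totals. The excess of summed values lies in the NZB:C57 group alone, so an effect of the mtDNA and one of dissection or library handling in that group cannot be told apart. The plot of the differences on each mtDNA shows most genes called in this test as a broad cloud to the right of the diagonal. There the difference is more positive on C57 mtDNA. Among the genes called, Myh7 and Casq1 also rose on NZB mtDNA, while Ogdhl fell on both and fell less on C57 mtDNA. The cloud and the diagonal hold different kinds of gene, which the following results take in order of their roles.

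**Figure D1:**
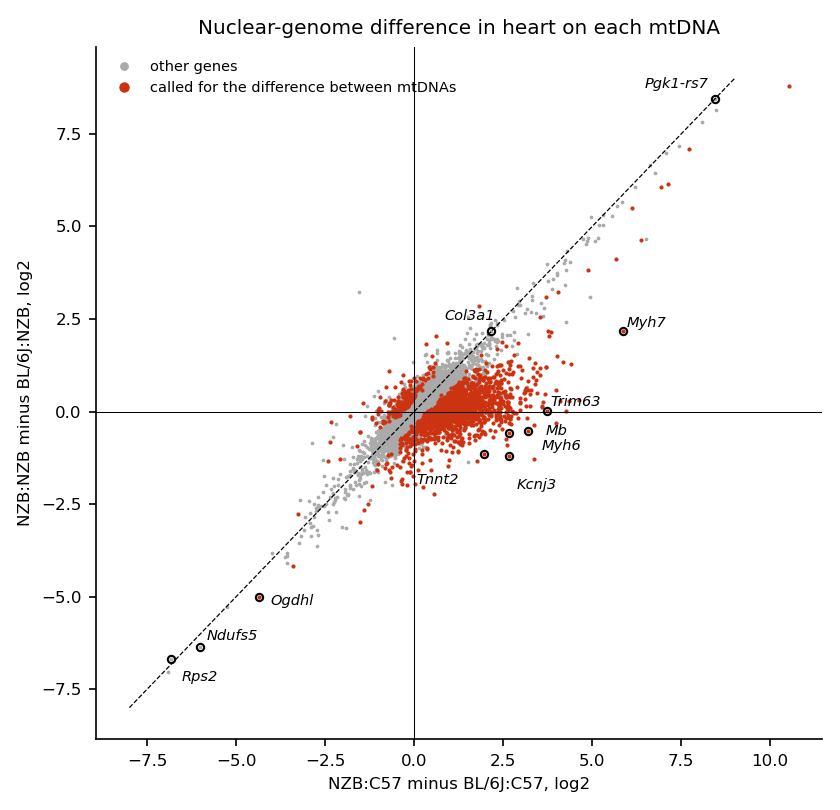
Each point is a gene, placed by its log2 difference between NZB and BL/6J nuclei in hearts on C57 mtDNA (horizontal) and on NZB mtDNA (vertical). Genes called for the difference between mtDNAs are red, the dashed line marks equal differences, and circled genes are named: Rps2, Ndufs5, Ogdhl, Col3a1 and Pgk1-rs7 lie near the line, and Myh6, Myh7, Mb, Trim63, Tnnt2 and Kcnj3 far to its right.

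Genes of the contractile apparatus were mostly higher. Of 47 sarcomere and Z-disc genes, 38 rose and 3 fell in NZB:C57 hearts, with a median log2 difference of 1.14, against 0.01 over all genes. The median was 0.56 with library totals and 0.48 with quantile normalisation. On NZB mtDNA the same genes had a median of -0.01, with 11 higher and 12 lower, and the difference of differences was called higher for 34 of them and lower for 2. In livers on C57 mtDNA, 15 of the 47 were higher and 3 lower (median 0.81).

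Myh6 (chromosome 14, 54941921 to 54966927), which encodes alpha-myosin heavy chain, the main myosin of the adult mouse ventricle, was 15114, 13614 and 13418 in BL/6J:C57 and 91692, 89892 and 87003 in NZB:C57 hearts. All NZB:C57 libraries lay above all BL/6J:C57 libraries, with a log2 difference 2.67, SE 0.11, limma adjusted p = 1.74e-12. It was lower with the NZB nucleus on NZB mtDNA, at 8397 ± 621 in NZB:NZB and 12500.3 ± 253 in BL/6J:NZB (mean ± SD, n = 3). With quantile normalisation, which gives all libraries the same largest values, its difference was 0.10 and no longer called.

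Myl3 (chromosome 9, 110741861 to 110769798), the ventricular essential myosin light chain, was 2818, 2618 and 2582 in BL/6J:C57 and 17684, 17915 and 16723 in NZB:C57 (log2 difference 2.71, SE 0.08, limma adjusted p = 5.57e-14). The regulatory light chain Myl2 went from 3994 ± 96.5 to 24307 ± 947, and cardiac actin Actc1 from 6792 ± 498 to 43692 ± 1559.8. Myoz2, a Z-disc protein that binds calcineurin, was 538, 498 and 549.8 in BL/6J:C57 and 3470.2, 3348 and 3627 in NZB:C57, with a difference of 2.72 (SE 0.07). Actn2, the alpha-actinin that crosslinks actin at the Z-disc, differed by 2.63 (SE 0.07), from 987 ± 75.9 to 6097 ± 142. These light chain, actin and Z-disc genes rose by similar amounts, about as far as Myh6 did, and their libraries did not overlap between the groups, as those of 47.5% of all genes tested did not.

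Myh7 (chromosome 14, 54970684 to 54994626), which encodes beta-myosin heavy chain, the myosin of the fetal and stressed mouse ventricle, was 79.7, 97.1 and 72.1 in BL/6J:C57 and 4902, 5306 and 4442 in NZB:C57 (log2 difference 5.87, SE 0.11, limma adjusted p = 1.20e-16). Of its 31-base words, 27.9% also occur in another gene, foremost in Myh6, so the division of reads between the pair is uncertain. It also rose on NZB mtDNA, where Myh6 fell, from 157 ± 25.6 to 707 ± 47.0. Mybpc2, the fast-type myosin-binding protein C, was 15.6, 14.8 and 14.2 in BL/6J:C57 and 308, 338 and 369 in NZB:C57 (difference 4.42, SE 0.10). A sarcomere gene that fell is Tpm3, a tropomyosin, chosen after its values were seen, which has a near-identical copy and is given with the other genes of that kind.

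Some abundant cardiac transcripts were not called on the authors' scale. Atp2a2 (chromosome 5, 122453513 to 122502225), the SERCA2 calcium pump, was 14333, 13070.5 and 13882 in BL/6J:C57 and 13311, 12834 and 12796 in NZB:C57, and the groups overlapped (difference -0.08, SE 0.09, limma adjusted p = 0.536). It was called lower at -0.67 with library totals, -0.31 without the 20 largest genes and -1.58 with quantile normalisation. Tpm1, the main cardiac tropomyosin, was 8429, 8308 and 8131 in BL/6J:C57 and 9402, 9430.4 and 9201 in NZB:C57 (difference 0.17, SE 0.09, limma adjusted p = 0.166), and with library totals it was called lower at -0.42. The values are not divided by transcript length, so they compare libraries and not genes.

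**Figure D2:**
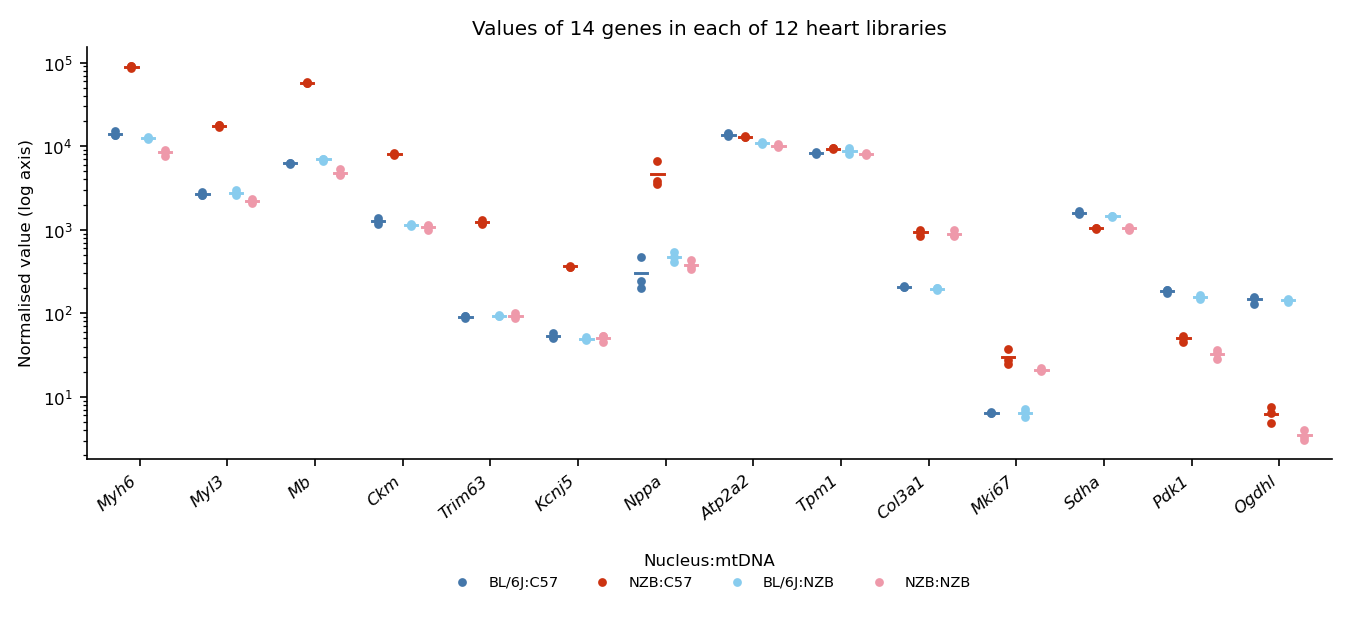
Normalised values of 14 genes in the 12 heart libraries on a log axis, with 1 point per pool and a bar at the mean of each genotype. Myh6 to Nppa are high in NZB:C57 hearts alone, Atp2a2 and Tpm1 lie close together in all genotypes on the authors' scale, and Col3a1, Mki67, Sdha, Pdk1 and Ogdhl separate NZB from BL/6J nuclei on both mtDNAs.

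Genes of the cardiac action potential followed the sarcomere. Of 28 cardiac ion channel genes, 19 rose and 5 fell (median 0.93, 0.35 with library totals), against 6 higher and 6 lower on NZB mtDNA (median -0.01). Kcnj5, a subunit of the acetylcholine-gated potassium channel, was 58.6, 50.5 and 52.1 in BL/6J:C57 and 369, 362 and 360.1 in NZB:C57 (log2 difference 2.74, SE 0.08, limma adjusted p = 3.17e-14), and 50.7 ± 5.03 in NZB:NZB. Cacna2d1, an auxiliary subunit of L-type calcium channels, went from 109 ± 4.55 to 589 ± 34.3 (difference 2.42, SE 0.09). Kcne1 and Cacna1g rose on both mtDNAs. Kcne1, the beta subunit of the slow delayed rectifier, was 5.74, 6.52 and 4.99 in BL/6J:C57 and 79.5, 88.1 and 102 in NZB:C57, and went from 5.35 ± 0.513 to 27.8 ± 2.55 on NZB mtDNA. Cacna1g, a T-type calcium channel of pacemaker tissue, was 19.6, 17.6 and 18.8 in BL/6J:C57 and 111, 109 and 107 in NZB:C57, and went from 18.9 ± 0.488 to 72.5 ± 9.23.

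Among 32 genes of calcium handling and excitation-contraction coupling, 20 rose and 5 fell (median 0.60, 0.03 with library totals and 0.23 with quantile normalisation), with a median of 0.07 on NZB mtDNA. With the median of all genes taken off, the 3 medians on C57 mtDNA were 0.60, 0.55 and 0.35. Trdn, triadin of the calcium release complex, was 124, 159 and 149 in BL/6J:C57 and 962, 838 and 974 in NZB:C57 (difference 2.68, SE 0.10). Hrc, a calcium-binding protein of the sarcoplasmic reticulum, went from 631 ± 35.6 to 2336 ± 60.6 on C57 mtDNA, and from 610.4 ± 42.7 down to 399 ± 4.0 on NZB mtDNA, and both changes were called. The cardiac calsequestrin Casq2, which stores calcium there, rose by 1.73 (SE 0.07). Casq1, its skeletal muscle form, was 12.2, 10.97 and 12.2 in BL/6J:C57 and 159.9, 182 and 159 in NZB:C57 (log2 difference 3.71, SE 0.10, limma adjusted p = 1.15e-14), and it rose less far on NZB mtDNA, from 13.98 ± 2.14 to 126 ± 11.03 (difference of differences 0.62, limma adjusted p = 0.00762).

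Energy transfer and oxygen storage genes rose, 12 of 18, with 4 lower (median 0.81, 0.23 with library totals), while on NZB mtDNA 2 were higher and 12 lower (median -0.30). Mb (chromosome 15, 77015487 to 77050670), myoglobin, was 6296, 6181 and 6280.5 in BL/6J:C57 and 57764, 57352 and 56457 in NZB:C57 (log2 difference 3.19, SE 0.10, limma adjusted p = 3.07e-14), and on NZB mtDNA it fell from 6949 ± 197 to 4823 ± 437. It shares 27.7% of its words, foremost with the overlapping gene model Gm49540. The cytosolic and mitochondrial creatine kinases Ckm and Ckmt2, which pass phosphate from ATP to creatine, differed by 2.65 and 2.28 (SE 0.08 and 0.08). Cox8b, the muscle isoform of a cytochrome c oxidase subunit, was 265, 249 and 273 in BL/6J:C57 and 795, 872 and 924 in NZB:C57. Fabp3, the heart fatty acid binding protein, went from 2027 ± 42.6 to 4839 ± 212 (difference 1.25, and 0.08, not called, with quantile normalisation). Other genes, foremost its pseudogene, hold 50.1% of its words.

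Trim63 (chromosome 4, 134315120 to 134329629), the muscle ubiquitin ligase MuRF1, was 92.2, 91.5 and 88.9 in BL/6J:C57 and 1199, 1154 and 1309.8 in NZB:C57 (log2 difference 3.73, SE 0.07, limma adjusted p = 4.33e-17), the smallest adjusted p among the muscle genes described here. On NZB mtDNA it was 93.0 ± 1.85 in BL/6J:NZB and 93.4 ± 5.82 in NZB:NZB, with a difference of 0.00, and the difference of differences was 3.73 (SE 0.10, limma adjusted p = 1.10e-13). Its relative Trim54 (MuRF3) went from 75.5 ± 6.04 to 793 ± 61.6, and Cavin4, a muscle caveolar protein, from 82.0 ± 3.42 to 511 ± 14.8. Over the 23 muscle ubiquitin ligase and proteostasis genes, 14 rose and 4 fell (median 0.59, but 0.00 with library totals). With the median of all genes taken off, these medians were 0.58 and 0.52.

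Cardiac transcription factors were mixed: of 25, 11 rose and 5 fell, and their median of 0.06 turned to -0.53 with library totals, -0.17 without the 20 largest genes and -0.09 with quantile normalisation. Tbx20, a T-box factor of cardiomyocytes, was 76.0, 72.9 and 66.9 in BL/6J:C57 and 254.8, 251 and 249 in NZB:C57 (difference 1.79, SE 0.07). Tbx5 went from 17.2 ± 2.65 to 81.4 ± 6.76. Zfpm2 (FOG2), a cofactor of GATA factors, was 10.1, 8.74 and 11.8 in BL/6J:C57 and 92.8, 80.9 and 84.8 in NZB:C57, with 7.94 ± 1.12 in NZB:NZB.

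Of 20 natriuretic peptide and wall stress genes, 11 rose and 4 fell (median 0.62, 0.07 with library totals). Nppa (chromosome 4, 148000722 to 148002079), which encodes atrial natriuretic peptide, was 471, 243 and 202 in BL/6J:C57 and 3560.1, 3811 and 6694 in NZB:C57 (log2 difference 3.97, SE 0.25, limma adjusted p = 8.14e-10). Its pools varied more than those of the sarcomere genes, and the groups still did not overlap. It shares 56.8% of its words, foremost with the gene model Gm13054. Corin, the protease that activates the peptide, was 161, 135 and 125 in BL/6J:C57 and 602, 558 and 603 in NZB:C57 (difference 2.07, SE 0.08). Acta1, skeletal alpha-actin, which the mouse ventricle re-expresses under load, was 365, 323 and 424 in BL/6J:C57 and 4959, 5297 and 5808 in NZB:C57 (log2 difference 3.86, SE 0.24, limma adjusted p = 7.41e-10), and on NZB mtDNA it rose from 432 ± 242 to 1733 ± 176.

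For Trim63, Myl3 and Nppa, 3 of the genes that rose, the 250 bases before the RefSeq start sites are given here (GRCm38.p6), 5′ to 3′ on the gene's own strand. Whether these bases play a part in the differences was not tested. The Myl3 window lies within the span given above for that gene, which comes from a different annotation. Capitals mark matches to TATAAA (the core of the TATA box), CATTCC (the core of the MCAT element of muscle promoters, GGAATG on the other strand), and the CArG box and MEF2 site, searched by name on both strands, and the TATAAA and MEF2 patterns can overlap.
Trim63, chr4:134314870-134315119, plus strand: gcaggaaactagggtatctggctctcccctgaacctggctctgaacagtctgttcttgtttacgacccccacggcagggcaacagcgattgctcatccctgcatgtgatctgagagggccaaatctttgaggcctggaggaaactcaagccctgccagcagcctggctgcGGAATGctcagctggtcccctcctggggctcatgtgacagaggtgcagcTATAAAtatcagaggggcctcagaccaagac
Myl3, chr9:110763428-110763677, plus strand: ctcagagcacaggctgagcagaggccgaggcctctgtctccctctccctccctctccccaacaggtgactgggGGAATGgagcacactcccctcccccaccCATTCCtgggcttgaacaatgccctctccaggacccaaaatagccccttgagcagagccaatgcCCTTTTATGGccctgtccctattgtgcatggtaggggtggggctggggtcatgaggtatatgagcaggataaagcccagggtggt
Nppa, chr4:148000472-148000721, plus strand: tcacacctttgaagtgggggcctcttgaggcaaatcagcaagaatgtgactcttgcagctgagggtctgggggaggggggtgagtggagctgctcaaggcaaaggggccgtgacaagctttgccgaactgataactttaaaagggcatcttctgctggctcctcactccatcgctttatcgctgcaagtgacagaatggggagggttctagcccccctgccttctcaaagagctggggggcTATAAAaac

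Trim63 held a TATAAA and, on the other strand, a CATTCC match. Myl3 held CATTCC on each strand and a CArG box, and Nppa held TATAAA just before its start site. These letters are not rare: of 27025 such windows in the RefSeq table, 12.97% held TATAAA, 12.6% CATTCC, 1.399% a CArG box and 3.01% a MEF2 match. Motif shares were not compared between gene sets, and 75.5% of the genes tested had a window in the table.

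Genes high in heart relative to liver were more often higher in NZB:C57. Genes were ordered by their heart minus liver difference in BL/6J:NZB mice, which the comparison of NZB:C57 with BL/6J:C57 does not use. The 8153 genes within 1 log2 unit of equal levels had a median difference of -0.02, and 15.1% of them were called higher. The median was 0.11 for 1763 genes that were 1 to 2 units higher in heart, 0.44 for 1149 that were 2 to 4 units higher, and 0.79 for the 415 that were 4 or more units higher, of which 68.7% were called higher. On NZB mtDNA the medians of these 4 bins were 0.02, -0.01, 0.05 and -0.07. The BL/6J:NZB hearts enter both this ordering and the difference on NZB mtDNA, so these last medians are not independent of it. At the other end, the 340 genes that were 4 or more units higher in liver had a median of 0.11 on C57 mtDNA, with 23.2% called higher, so the relation was not monotone.

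In a further split of the 415 genes, chosen after their values were seen, the 273 with a mean value under 1 in BL/6J:NZB liver had a median of 1.19, with 78.0% called higher. The 118 with a liver value from 1 to 10 had a median of 0.36, and the 24 with a liver value of 10 or more a median of 0.10, with 25.0% called higher. Atp2a2, the calcium pump, belongs to the last set, with 317 in BL/6J:C57 liver, while Myh6, Mb and Trim63 had liver values under 1 there. Between livers on C57 mtDNA, the median difference of the 273 genes, where tested, was 0.85.

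**Figure D3:**
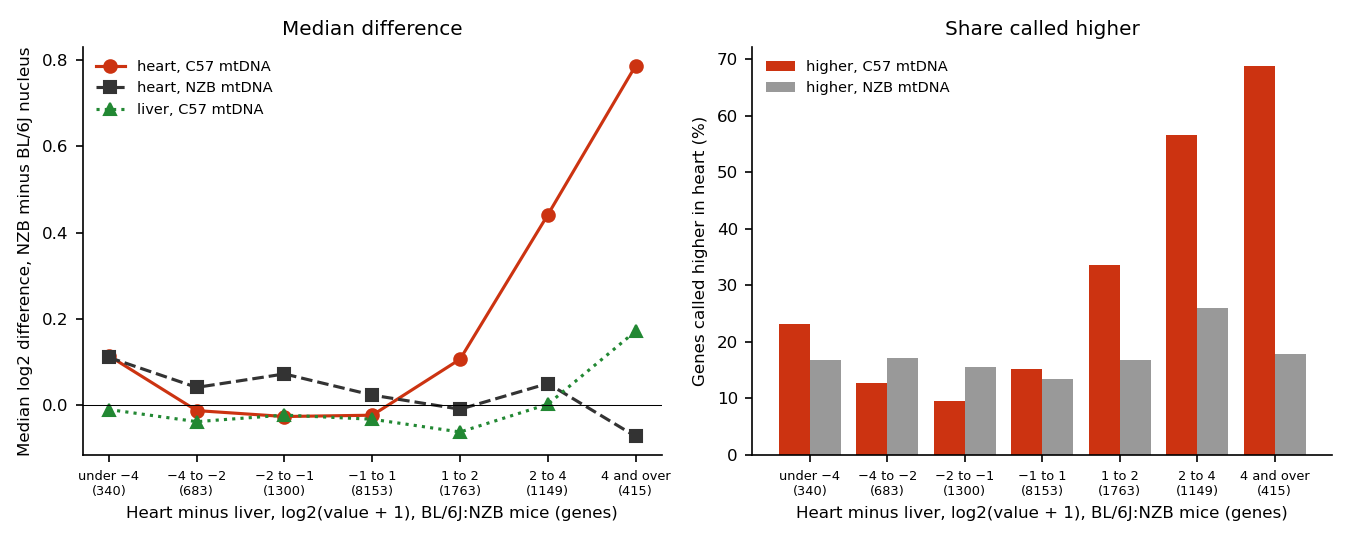
Genes in 7 bins of their heart minus liver level in BL/6J:NZB mice, with the number of genes per bin below the axis. The left panel gives the median log2 difference between NZB and BL/6J nuclei in hearts on each mtDNA and in livers on C57 mtDNA. The right panel gives the share of genes called higher in heart. The rise toward heart-specific genes is seen in hearts on C57 mtDNA. It is absent from the heart medians on NZB mtDNA, which share the BL/6J:NZB hearts with the ordering. The liver median was 0.17 in the bin of 4 and over.

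The labels call the tissue left ventricle, and cardiomyocyte markers were high in all 6 libraries, with summed values from 49132 to 52100.5 in BL/6J:C57 and from 287545 to 293609 in NZB:C57 hearts. Of 14 such markers, 12 rose and 1 fell (median 2.62, 0.57 with quantile normalisation), against 0 higher and 7 lower on NZB mtDNA. In livers on C57 mtDNA, 11 of the 14 were higher and 0 lower (median 2.01), against 13.1% of all genes higher there. Among them, Ckm had a mean of 0 in BL/6J:C57 and 2.91 in NZB:C57 livers. In bulk tissue, fewer cells of a type and less RNA per cell cannot be told apart, nor can more cells and more RNA. Atrial markers moved with the muscle genes: 11 of 11 rose (median 2.62), and their sum was 1070.1 to 1672 in BL/6J:C57, 6830.4 to 11167 in NZB:C57 and 1281 to 1776 in NZB:NZB hearts. Myl7, the atrial light chain, was 84.7, 40.7 and 37.7 in BL/6J:C57 and 742, 786 and 1187 in NZB:C57 (log2 difference 4.10, SE 0.29, limma adjusted p = 4.32e-09). Sln, sarcolipin, an atrial inhibitor of the calcium pump, was 32.0, 20.03 and 13.3 in BL/6J:C57 and 205, 251 and 327 in NZB:C57. Of 21 skeletal muscle markers, 8 passed the filter on low values, which the NZB:C57 libraries alone can meet. Of these 8, 7 rose (median 1.67, 0.66 without the filter). Their sum was 382 to 482 in BL/6J:C57 and 5496 to 6392 in NZB:C57, of which Acta1 was the greater share. These markers moved with the sarcomere, ion channel and natriuretic peptide genes, and their part in those differences was not tested. The marker lists share members with those lists, so part of this joint movement is fixed by that overlap. Acta1 is in the wall stress and skeletal muscle lists, and Actn2 in the sarcomere and cardiomyocyte lists.

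Markers of the other cells of the heart wall were higher too. Of 20 endothelial markers 18 rose and 0 fell (median 0.77, 0.19 with library totals), against 4 higher on NZB mtDNA (median 0.09). Cd93, an endothelial surface receptor, was 121, 118 and 112 in BL/6J:C57 and 319.8, 322 and 323 in NZB:C57, and Kdr, the main VEGF receptor, went from 219 ± 9.79 to 409 ± 34.5 and stayed at 219 ± 5.01 in NZB:NZB, against 227 ± 6.0 in BL/6J:NZB. Of 17 fibroblast markers 15 rose and 0 fell (median 1.24, 0.65 with library totals). Mfap5, a microfibril protein, was 12.03, 11.4 and 10.3 in BL/6J:C57 and 185, 214 and 273 in NZB:C57 (log2 difference 4.18, SE 0.13, limma adjusted p = 3.36e-14). Of 16 smooth muscle and pericyte markers 10 rose and 2 fell (median 0.66, 0.08 with library totals), and Cspg4, the pericyte proteoglycan NG2, was 14.8, 11.4 and 13.5 in BL/6J:C57 and 144, 151 and 162 in NZB:C57. Of 19 macrophage markers 12 rose and 0 fell (median 0.54, 0.09 with library totals), among them Mrc1, from 18.5 ± 1.66 to 51.0 ± 6.97. Epicardial markers (8 of 10 higher, median 1.07, 0.57 with library totals) and nerve markers (6 of 11, median 0.93, 0.42 with library totals) moved the same way, at sums from 69.1 to 122 and from 134 to 142 in NZB:C57. T and NK cell markers, of which 3 of 18 passed the filter on low values, summed to 2.07 to 3.70 in BL/6J:C57 and 1.55 to 3.80 in NZB:C57, and 0 were called. Of 12 neutrophil markers 6 passed that filter, of which 3 fell and 0 rose.

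Blood, fat and liver transcripts varied among the NZB:C57 pools. Of 14 red cell markers, 9 passed the filter on low values and 5 of them rose (median 1.17, 0.81 without the filter). The alpha-globin gene Hba-a1 was 768, 805 and 1126 in BL/6J:C57 and 2489.8, 8484 and 3499.5 in NZB:C57, with pool 2 far above pools 1 and 3. The beta-globin gene Hbb-bs was 1299, 1177 and 1686 in BL/6J:C57 and 2482, 7686 and 3619.8 in NZB:C57, with the same pool highest, and with quantile normalisation its difference of 1.58 was 0.47 and not called. Both globin genes share most of their words with a neighbouring copy. Of 15 adipocyte markers 13 passed the filter on low values. Of these 13, 8 rose and 2 fell (median 1.13, 0.76 without the filter), against 7 and 3 on NZB mtDNA. Adipoq, adiponectin, was 0.456, 0.477 and 0.739 in BL/6J:C57 and 2.29, 18.0 and 19.2 in NZB:C57, and Cfd, adipsin, was 2.37, 0.954 and 1.66 in BL/6J:C57 and 9.51, 52.7 and 59.4 in NZB:C57, with pool 1 the lowest in NZB:C57. Of 23 hepatocyte markers, 19 passed the filter on low values and 13 of them rose (median 1.19, 1.09 without the filter). Their summed value was 50.8 to 63.6 in BL/6J:C57, 118 to 211 in NZB:C57 and 72.0 to 336 in BL/6J:NZB hearts. Alb, albumin, chosen after its values were seen, was 7.93, 11.6 and 8.499 in BL/6J:C57 and 29.9, 62.2 and 48.1 in NZB:C57 hearts and 77006 ± 3125 in BL/6J:C57 liver. Conversely, Myh6 was 0, 0.0558 and 0.0398 in BL/6J:C57 livers and 0, 46.6 and 35.2 in NZB:C57 livers.

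Many nuclear genes for respiratory complexes I to III and ATP synthase fell, while those for cytochrome c oxidase were called lower about as often as all genes (13.1%). Of 37 complex I genes, 21 fell and 0 rose (median -0.24), and of 14 complex II and III genes 9 fell and 0 rose (median -0.27). ATP synthase had 7 of 15 lower and 1 higher (median -0.21), and cytochrome c oxidase 2 of 16 lower and 3 higher (median -0.17). These medians were negative under each scaling tried, but each rescaling also moved the median of all genes down. With the median of all genes taken off, they were -0.30, -0.34, -0.28 and -0.21 with library totals. With quantile normalisation they were then -0.28, -0.34, -0.29 and -0.19. On NZB mtDNA the medians on the authors' scale were lower still, at -0.44, -0.32, -0.38 and -0.47, and 34 complex I genes fell. Sdha (chromosome 13, 74322254 to 74350280), the flavoprotein of complex II, was 1660.2, 1540.0 and 1583 in BL/6J:C57 and 1062, 1033 and 1046 in NZB:C57 (log2 difference -0.61, SE 0.06, limma adjusted p = 6.84e-07), and it also fell on NZB mtDNA, from 1448 ± 13.4 to 1035 ± 31.6. Ndufa3, an accessory subunit of complex I, was 176, 177 and 176 in BL/6J:C57 and 111, 113 and 123 in NZB:C57 (difference -0.61, SE 0.09), and Ndufa13 went from 266 ± 17.6 to 171 ± 7.08. Cox5b, of cytochrome c oxidase, went from 512 ± 12.3 to 365 ± 15.03. The oxidase genes that rose include Cox6a2, a heart and muscle isoform, which was 785, 683 and 743 in BL/6J:C57 and 1499, 1599 and 1542 in NZB:C57 and fell on NZB mtDNA from 781 ± 116 to 553 ± 26.3. Some members share at least 10% of their words with another gene, as 23.8% of all genes tested do. They are 13 of complex I, 4 of complexes II and III, 9 of ATP synthase and 7 of cytochrome c oxidase. The lower complex I genes include Ndufs5, which is given below with its copy. The mRNAs encoded in mtDNA were not analysed here.

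The citric acid cycle and pyruvate oxidation list had 19 of 30 genes lower and 0 higher (median -0.23). Ogdhl (chromosome 14, 32322019 to 32348151), a relative of the 2-oxoglutarate dehydrogenase subunit, was 159, 130.3 and 151 in BL/6J:C57 and 6.45, 7.59 and 4.86 in NZB:C57 (log2 difference -4.35, SE 0.13, limma adjusted p = 2.21e-14), and on NZB mtDNA it went from 143 ± 6.75 to 3.46 ± 0.492. Pdk1, a kinase that switches off pyruvate dehydrogenase, was 189, 174 and 191 in BL/6J:C57 and 50.3, 45.9 and 53.6 in NZB:C57 (difference -1.87, SE 0.09), and in livers on C57 mtDNA it went from 67.7 ± 8.96 to 19.0 ± 2.50. Of 41 fatty acid uptake and oxidation genes, 28 fell and 5 rose (median -0.37, and -0.41 with 34 lower on NZB mtDNA). Slc25a20, the carnitine-acylcarnitine carrier, was 179, 169 and 174 in BL/6J:C57 and 103, 100.03 and 104 in NZB:C57. Decr1, a dienoyl-CoA reductase of the oxidation of unsaturated fatty acids, went from 472 ± 21.04 to 280.4 ± 9.29 (difference -0.75), and Mlycd, which breaks down malonyl-CoA, from 118 ± 8.75 to 65.5 ± 5.71 (-0.84). Of 76 mitochondrial ribosomal protein genes 24 fell and 1 rose (median -0.16), among them Mrpl55, from 44.5 ± 4.21 to 24.5 ± 1.18. Of the 76, 29 share at least 10% of their words with another gene.

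Glucose genes were divided, with 7 of 28 higher and 8 lower (median -0.09). Slc2a4, the insulin-responsive glucose transporter GLUT4, was 259, 232 and 242 in BL/6J:C57 and 807, 750.1 and 753 in NZB:C57 (log2 difference 1.65, SE 0.07, limma adjusted p = 1.47e-12), and on NZB mtDNA it was lower with the NZB nucleus, from 215 ± 7.97 to 181 ± 6.42. Pgam2, the muscle phosphoglycerate mutase, rose by 1.17 (SE 0.07). Bdh1, which oxidises the ketone body 3-hydroxybutyrate, was 91.8, 77.1 and 85.4 in BL/6J:C57 and 271, 266 and 278 in NZB:C57 and rose on NZB mtDNA from 67.1 ± 17.4 to 175 ± 2.04. Lipid synthesis genes had 9 of 24 higher and 3 lower (median 0.13, -0.40 with library totals, -0.07 without the 20 largest genes and -0.08 with quantile normalisation). Scd1, a stearoyl-CoA desaturase, went from 13.3 ± 1.93 to 87.4 ± 39.3, Fasn, the fatty acid synthase, from 22.9 ± 2.71 to 62.0 ± 18.6, and Dgat2, which makes triglyceride, fell from 308 ± 32.7 to 141 ± 3.75. The 3 genes changed the same way on NZB mtDNA, by 2.48, 1.74 and -1.3, and no adjusted p for the difference between the mtDNAs was under 0.05.

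Extracellular matrix genes rose without exception: 39 of 39 (median 1.36, 0.77 with library totals), against 36 on NZB mtDNA (median 1.11) and 15 in liver on C57 mtDNA (median 0.42). Col3a1 (chromosome 1, 45311538 to 45349706), the type III collagen chain, was 207, 204 and 212 in BL/6J:C57 and 949.7, 996 and 842 in NZB:C57 (log2 difference 2.15, SE 0.08, limma adjusted p = 3.77e-13). It was 197 ± 6.70 in BL/6J:NZB and 896 ± 82.8 in NZB:NZB, and the difference of differences was -0.02 (SE 0.11, limma adjusted p = 0.941). Fbn1, fibrillin 1, was 69.4, 71.7 and 75.7 in BL/6J:C57 and 277, 273 and 257 in NZB:C57 (difference 1.88, and 1.52 on NZB mtDNA). Sparc, a collagen-binding matricellular protein, went from 356 ± 13.9 to 1132 ± 16.9, and Dcn, the proteoglycan decorin, from 333 ± 9.16 to 858 ± 16.8, and both rose further than on NZB mtDNA (0.55 and 0.99, limma adjusted p = 0.0013 and 4.34e-07). Fibroblast markers moved with this list, with sums of 1923 to 2223 in BL/6J:C57 and 5426 to 5804 in NZB:C57 hearts, and their part in the result was not tested. The lists share members, Col3a1 and Dcn among them, so part of this joint movement is fixed by that overlap. Of the matrix genes, 2 share 10% or more of their words with other genes.

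Cell cycle genes were low in these adult hearts and higher with the NZB nucleus, with 28 of 35 up and 0 down (median 1.22). The median was 0.74 with library totals, 0.56 for genes that reach a value of 10 in 3 libraries and 0.50 with log2(value + 5). The count was 24 up and 1 down on NZB mtDNA and 26 up and 0 down in liver, at medians of 0.82 and 0.87. Mki67, the proliferation antigen Ki-67, was 6.47, 6.52 and 6.47 in BL/6J:C57 and 36.9, 27.8 and 24.7 in NZB:C57 (log2 difference 2.02, SE 0.13, limma adjusted p = 1.56e-09), and in livers it went from 3.07 ± 0.376 to 15.9 ± 7.43. Top2a, topoisomerase II alpha, was 4.01, 2.70 and 3.51 in BL/6J:C57 and 14.4, 13.2 and 14.1 in NZB:C57 (difference 1.77, and 1.76 on NZB mtDNA). Chaperones of the endoplasmic reticulum had 13 of 19 higher and 0 lower, against 14 higher on NZB mtDNA (median 0.41). Their median on C57 mtDNA was 0.28, and -0.30 with library totals. With the median of all genes taken off, these were 0.28 and 0.21. Pdia6, a protein disulfide isomerase, was 92.9, 83.6 and 77.6 in BL/6J:C57 and 108, 133 and 104 in NZB:C57 (difference 0.43, but -0.15 with library totals, and 0.21, not called, without the 20 largest genes). Manf, a secreted stress factor, went from 38.8 ± 5.71 to 57.3 ± 6.70 (difference 0.55, -0.02 with library totals).

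**Figure D4:**
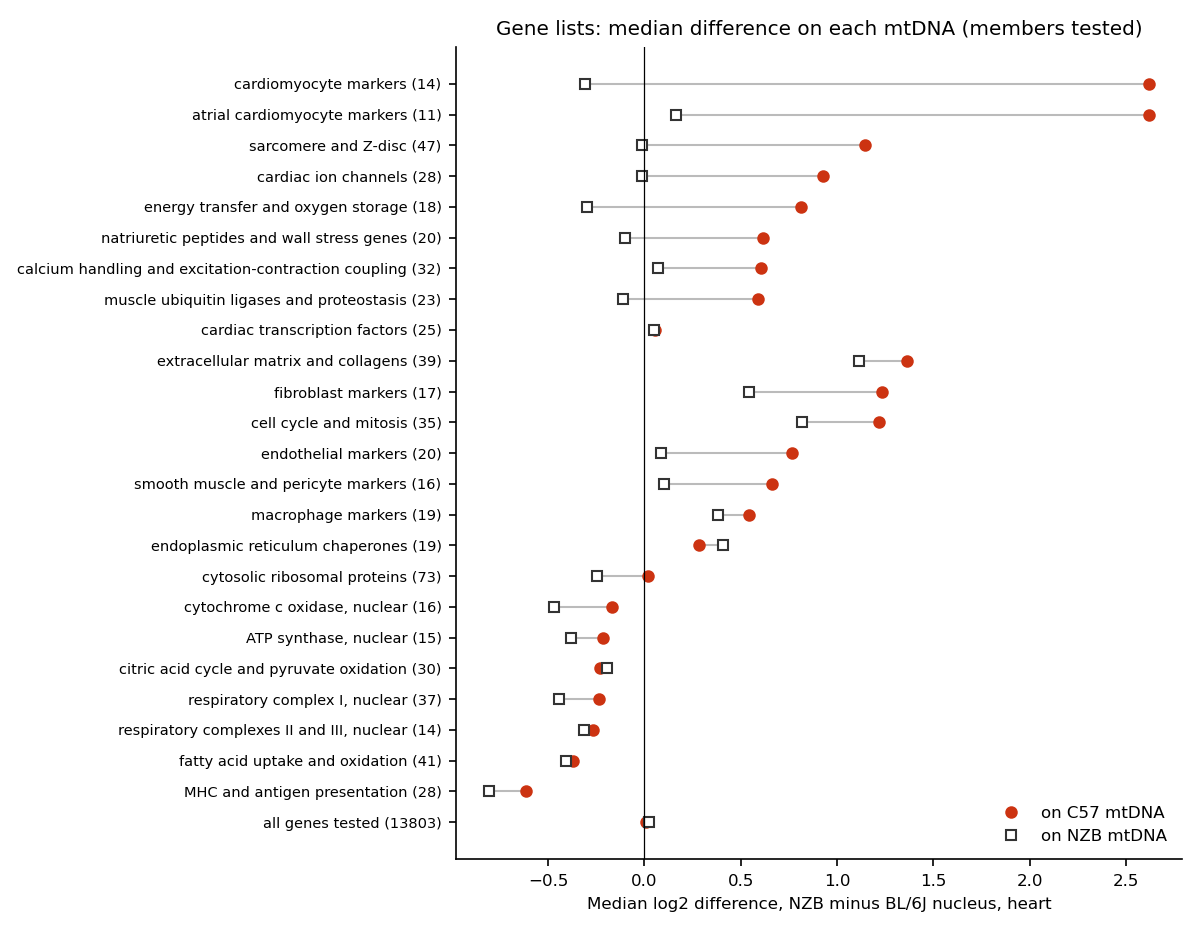
Median log2 difference between NZB and BL/6J nuclei for 24 gene lists and for all genes tested, in hearts on C57 mtDNA (filled circles) and on NZB mtDNA (open squares), with the number of members tested in brackets. Muscle lists other than the transcription factors are high on C57 mtDNA and near or below 0 on NZB mtDNA, while matrix and cell cycle lists are high on both and the mitochondrial and MHC lists are below 0 on both.

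MHC and antigen presentation genes were mostly lower, 17 of 28 with 3 higher (median -0.61), and similar counts fell on NZB mtDNA (18) and in liver (20). H2-K1 (chromosome 17, 33996017 to 34000347), a classical class I gene that presents peptides to CD8 T cells, was 144, 150.3 and 179 in BL/6J:C57 and 29.3, 37.4 and 28.9 in NZB:C57 (log2 difference -2.28, SE 0.12, limma adjusted p = 7.62e-11), and in livers it went from 1614 ± 137 to 145 ± 5.0. H2-Aa, a class II chain of antigen-presenting cells, was 55.4, 53.6 and 68.5 in BL/6J:C57 and 9.68, 12.96 and 8.61 in NZB:C57 (difference -2.41, SE 0.14). Macrophage markers, which include cells that carry class II, rose (summed values of 393 to 407 in BL/6J:C57 and 636 to 714 in NZB:C57). H2-T22, a nonclassical class I gene, went from 21.8 ± 4.21 to 2.16 ± 0.161. H2-Ea-ps, the class II alpha chain that is a pseudogene in the C57BL/6 reference, had no reads in the 3 BL/6J:C57 libraries and was 15.2, 18.9 and 12.8 in NZB:C57, at least 108-fold higher against a floor of 3 reads over the group. MHC genes vary in sequence between strains, reads were placed on GRCm38, which is a C57BL/6J genome, and how far NZB variants lower such counts was not tested. H2-K1 and H2-T22 share 22.8% and 67.4% of their words with other class I genes.

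The Ifi200 family, interferon-inducible DNA sensors and regulators in 1 cluster on chromosome 1, was split, with 4 of 11 higher and 4 lower (median 0.17, which turned to -0.34, -0.03 and -0.07 with library totals, without the 20 largest genes and with quantile normalisation). Ifi202b (chromosome 1, 173962568 to 173982744), a gene of the NZB lupus locus, had no reads in BL/6J:C57 hearts and was 24.6, 27.8 and 34.4 in NZB:C57 hearts, at least 199.8-fold higher. It was 0.0478 ± 0.0827 in BL/6J:NZB and 13.9 ± 1.95 in NZB:NZB. Ifi205 was 10.5, 10.8 and 5.36 in BL/6J:C57 and 0.170, 0.165 and 0.442 in NZB:C57, and Mndal went from 16.1 ± 3.497 to 1.63 ± 0.909. Both share part of their words with other members. Interferon-stimulated genes had 3 of 38 higher and 10 lower (median -0.24), against 1 and 21 on NZB mtDNA. Irf7, the factor that amplifies type I interferon responses, was 17.2, 18.0 and 23.6 in BL/6J:C57 and 8.57, 12.3 and 8.61 in NZB:C57, and Irgm2, an immunity-related GTPase, went from 32.5 ± 3.27 to 17.9 ± 2.42.

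Of the genes known to vary among C57BL/6 and NZB mice, some differed and others did not. A C57BL/6 substrain sold by Harlan is known to lack Mmrn1. Mmrn1, multimerin 1, had no reads in any BL/6J:C57 heart and was 8.40, 12.1 and 11.7 in NZB:C57, at least 74.1-fold higher. It was also without reads in BL/6J:NZB hearts. Nnt, the nicotinamide nucleotide transhydrogenase, truncated in C57BL/6J, was 1086, 948 and 945 in BL/6J:C57 and 959, 937 and 904 in NZB:C57, with overlapping groups (difference -0.09, SE 0.07, limma adjusted p = 0.381), and it shares 47.8% of its words with a second gene model of that name. Cox7a2l, the supercomplex assembly factor SCAF1, whose short C57BL/6 form is a known variant, was 199.6, 201 and 205 in BL/6J:C57 and 153, 158 and 157 in NZB:C57 (difference -0.37, SE 0.08, limma adjusted p = 0.00115). Its value does not tell the forms apart. Wdfy1 and Fcgr2b were not called (differences 0.09 and 0.17), although with library totals Wdfy1 was called lower at -0.49 and Nnt at -0.68, and Hc was below the filter on low values.

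Other genes had extreme differences and belong to none of the lists. Scgb1a1, a secretoglobin of airway epithelium, had no reads in BL/6J:C57 hearts and was 53.8, 286 and 48.8 in NZB:C57, with pool 2 far above the others, and 50.1 ± 43.4 in NZB:NZB. Hamp2, a relative of the iron hormone hepcidin, was 0, 0.159 and 0.185 in BL/6J:C57 and 50.5, 54.7 and 63.8 in NZB:C57, and it shares 34.5% of its words with Hamp. Cyfip2, a regulator of actin assembly that is a known source of differences among C57BL/6 substrains, was 235, 214 and 240.2 in BL/6J:C57 and 14.2, 13.04 and 13.5 in NZB:C57 (log2 difference -3.99, SE 0.11, limma adjusted p = 7.83e-15), and in liver the direction was the opposite (0.76). Nxpe4 went from 14.4 ± 1.69 to 0.239 ± 0.165. Zfp979, a zinc finger gene, was 9.39, 11.9 and 11.5 in BL/6J:C57 and had no reads in NZB:C57.

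Many of the genes that fell most share sequence with other genes, as family members or as near-identical copies. Of 64 genes lower by 2 or more log2 units, 60.9% share at least 10% of their 31-base words with another gene, against 23.8% of all genes tested. In 27 pairs, a gene fell and its foremost partner, or for Rps2 the copy Rps2-ps13, rose by at least 1 log2 unit, and 24 of the pairs did the same on NZB mtDNA. In 17 pairs the copy lies on another chromosome, and for 12 of these the sum of gene and copy was within 1.3-fold between the groups.

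Rps2 (chr17:24718116-24721929), a protein of the small ribosomal subunit, was 394, 385 and 362 in BL/6J:C57 and 2.55, 1.82 and 2.65 in NZB:C57 (log2 difference -6.85, SE 0.10, limma adjusted p = 2.94e-18). Its processed copy Rps2-ps13 (chrX:52898588-52899469) was 0.182, 0 and 0 in BL/6J:C57 and 359.6, 371 and 393 in NZB:C57. The copy matches the Rps2 coding sequence with 7 mismatches over 882 aligned bases and 13 gaps. The stretch from base 25 to 84 of that coding sequence shows how little separates them, with the 2 mismatches in capitals.
Rps2: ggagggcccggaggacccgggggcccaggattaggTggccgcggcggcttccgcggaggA
Rps2-ps13: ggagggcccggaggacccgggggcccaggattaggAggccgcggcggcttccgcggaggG

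Atp6v0c (chr17:24163866-24169702), the proteolipid ring subunit of the vacuolar proton pump, chosen after its values were seen, was 128, 116 and 119 in BL/6J:C57 and 12.6, 17.7 and 19.2 in NZB:C57, and its copy Atp6v0c-ps2 (chr6:37806086-37806550) was 0 in BL/6J:C57 and 133, 119.5 and 115 in NZB:C57. They differ at 1 of 465 aligned coding bases, which is in capitals in the stretch from base 52 to 111.
Atp6v0c: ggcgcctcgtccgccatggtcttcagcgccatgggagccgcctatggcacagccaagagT
Atp6v0c-ps2: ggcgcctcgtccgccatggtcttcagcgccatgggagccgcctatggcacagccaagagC

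Added together, Rps2 and Rps2-ps13 were 380.5 ± 16.7 in BL/6J:C57 and 377 ± 16.9 in NZB:C57 hearts, and Atp6v0c and its copy 121 ± 6.29 in BL/6J:C57 and 139 ± 5.58 in NZB:C57. Pgk1 (chrX:106187100-106203699), phosphoglycerate kinase of glycolysis, was 477, 442 and 454 in BL/6J:C57 and 65.5, 68.0 and 64.9 in NZB:C57, while Pgk1-rs7 (chr12:10898986-10900240), identical to it over 1253 coding bases, had no reads in BL/6J:C57 and was 353, 331 and 370.2 in NZB:C57. Their sum was 458 ± 17.6 in BL/6J:C57 and 418 ± 17.9 in NZB:C57. Ndufs5, a complex I subunit, was 143, 152 and 155 in BL/6J:C57 and 1.78, 0.908 and 1.32 in NZB:C57, and with its copy BC002163 the sum was 150.1 ± 6.66 in BL/6J:C57 and 134 ± 4.45 in NZB:C57. Rpl26, of the large ribosomal subunit, was 156, 153 and 156 in BL/6J:C57 and 0.764, 0.248 and 0 in NZB:C57, and its sum with Gm15772 was 155 ± 1.87 in BL/6J:C57 and 222 ± 6.10 in NZB:C57. Tpm3 fell from 65.1 ± 3.07 to 20.9 ± 1.59 while Tpm3-rs7 rose from 0.123 ± 0.213 to 63.1 ± 7.82. Ncoa4, a receptor for the breakdown of ferritin, and its copy Gm6768 added up to 82.0 ± 4.06 in BL/6J:C57 and 83.5 ± 6.50 in NZB:C57. The ribosomal protein genes Rpl29, Rpl21 and Rpl35a, which also have copies, differed by -5.25, -3.58 and -3.57. Among the genes that rose most, Vdac3-ps1 and Eno1b share 88.7% and 89.2% of their words with Vdac3 and Eno1, and went from 0.159 ± 0.275 to 52.6 ± 2.81 and from no reads to 38.7 ± 3.51. The copies BC002163, Gm15772 and Gm6768, and Ncoa4, were chosen after their values were seen. The values of a gene and its copy are therefore uncertain taken singly, and which of them the NZB transcripts come from was not tested. Of 73 cytosolic ribosomal protein genes, 65 share at least 10% of their words, so that list is not read further.

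**Figure D5:**
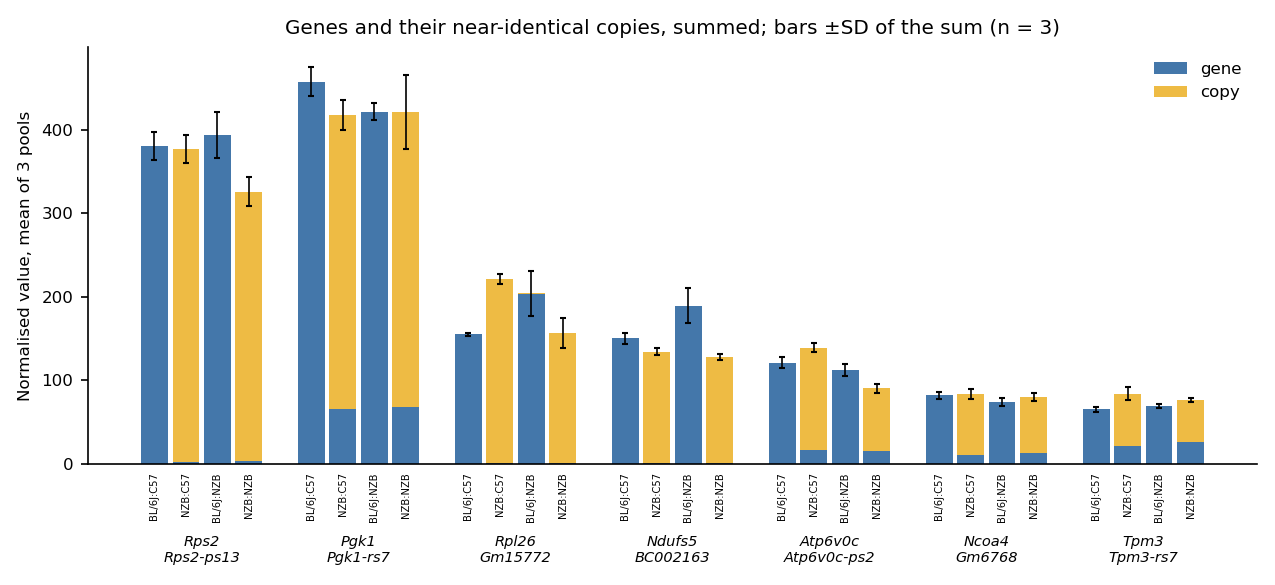
Mean normalised values of 7 genes (blue) and their near-identical copies (yellow), stacked, in hearts of 4 genotypes, with the SD of the sum over 3 pools. The gene holds the value with a BL/6J nucleus and the copy holds most of it with an NZB nucleus, on both mtDNAs.

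Called in opposite directions on the mtDNAs were 148 genes (1.07%; 1507 with library totals and 375 without the 20 largest genes), 133 of them higher with the NZB nucleus on C57 mtDNA and lower on NZB mtDNA. Tnnt2 (chromosome 1, 135836354 to 135852260), cardiac troponin T, was 4008, 4478 and 4058 in BL/6J:C57 and 16189, 16349 and 16249 in NZB:C57 hearts (log2 difference 1.96, SE 0.10, limma adjusted p = 5.69e-11). On NZB mtDNA it was 4251, 4919 and 5728 in BL/6J:NZB and 2271, 2122 and 2259 in NZB:NZB (difference -1.15), so NZB:C57 was the highest and NZB:NZB the lowest of the 4 genotypes, while the BL/6J:C57 and BL/6J:NZB pools between them overlapped. Acss1, a mitochondrial acetyl-CoA synthetase, was 263, 243 and 229 in BL/6J:C57 and 572, 582 and 583 in NZB:C57, and 224, 214 and 226 in BL/6J:NZB against 104, 106 and 107 in NZB:NZB. Adprhl1, a heart-enriched relative of ADP-ribosylhydrolases, differed by 1.55 and -0.86, Myzap, an intercalated disc protein, by 0.82 and -0.68, and Asb14 by 1.3 and -0.89. Kcnj3, which forms the acetylcholine-gated potassium channel with Kcnj5, differed by 2.67 and -1.2, and it shares 30.2% of its words, foremost with Gm26794.

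In liver the same nuclear genomes on C57 mtDNA gave 1729 higher (13.1%) and 1941 lower genes (14.8%) of 13159 tested. Of the genes tested in heart, 924 (6.69%) were called the same way in hearts on both mtDNAs and in liver, 421 higher and 503 lower. Those with the smallest p include Rps2, Pgk1, Rpl26, Ndufs5, H2-K1 and H2-T22, whose liver differences were -6.71, -3.09, -5.93, -5.74, -3.46 and -3.08. The difference of the nuclear effect between heart and liver was called for 3859 genes (25.8%), 2586 higher in heart (17.3%) and 1273 lower (8.5%), in a fit that took the tissues as independent although their pools may share animals. On recovered reads edgeR called 1835 and DESeq2 1917.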

How the data were processed

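Values came from 1 table of 15323 genes by 24 libraries. Per the submitters' processing notes, the tools include cutadapt (1.2.1), RSEM (1.2.3), Bowtie2 (2.0.6) and edgeR, and the build is GRCm38. The deposited values are a normalised signal per gene, and its steps are those of read counts over 1 factor per library. Whole reads were recovered from these steps for 100% of values, within 0.01 reads. Whether counting used strand is not stated in the labels, so overlapping and antisense genes are uncertain, as are 55 genes with the same values as another. GRCm38 is a C57BL/6J genome, and the effect of NZB variants on alignment was not tested.

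Symbols came from the annotation for 98.7% of genes, and no gene of mtDNA was analysed here (0 in the table).

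Genes that reached a value of 1 in 3 or more heart libraries were tested on log2(value + 1) with limma (3.58.1, R 4.3.3), over all 12 hearts, with Benjamini-Hochberg adjustment over all genes tested, and a gene is called at an adjusted p under 0.05. The members and the 51 gene lists (1264 names, 1214 in the table, 1176 tested) were chosen with earlier results of these data known. Named genes are the 10 highest and 10 lowest non-overlapping called genes with a mean of at least 10, up to 4 called members per list by adjusted p, the 8 most consistent each way over both mtDNAs and liver, the 6 most opposite, the 5 most abundant per group and the strain genes, predicted models left out, and 1 gene under the rule is not reported here. Sharing is the percent of a gene's 31-base words, over its transcripts, that occur in another gene. All replicate pairs of hearts differed by more than sampling noise (chi-square per degree of freedom 2.08 to 9.27).

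On simulated data for this comparison (13233 genes), 95 of 100 genes changed by a log2 of 1 were called, 100 of 100 changed by 2, and 12 of 13033 unchanged genes. All simulated hearts took the BL/6J:C57 means and the same dispersion for every gene, with few genes changed, equally up and down. They held no excess of summed values in NZB:C57, so false calls under such an excess were not tested. Alternatives were other constants, filters, scalings, left-out libraries, a replicate block, edgeR (4.0.16) and DESeq2 (1.42.0) on recovered reads. Floors of 3 reads cover counting error only.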

Additional observations from a re-analysis of the deposited data

Results flagged for a closer look

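The nuclear difference was larger or smaller on C57 mtDNA than on NZB mtDNA, by limma's test of the difference of differences, for 1550 genes in heart, and it differed between heart and liver on C57 mtDNA for 3859 genes. Of the 118 genes named here, 59 had a difference of differences that passed, against 11.2% of all genes tested. Many were named for their difference on C57 mtDNA, which enters this test, so the choice itself raises that share. In this test the mtDNA and the conplastic or parental breeding history cannot be told apart. Each value that follows is the log2 difference on C57 mtDNA less that on NZB mtDNA. For sarcomere genes these values were Myh6 3.25, Myh7 3.69, Myoz2 2.84, Actn2 2.57, Myl3 3.03, Myl2 3.51, Actc1 2.88, Tnnt2 3.11, Mybpc2 3.13 and Acta1 1.72. For ion channel and calcium handling genes they were Kcnj5 2.72, Kcnj3 3.88, Kcne1 1.57, Cacna2d1 2.53, Cacna1g 0.60, Casq1 0.62, Hrc 2.50, Casq2 1.2 and Trdn 2.88. For energy transfer and fuel genes they were Mb 3.72, Ckm 2.73, Ckmt2 2.81, Cox8b 2.48, Cox6a2 1.56, Fabp3 1.45, Slc2a4 1.90, Pgam2 1.15, Ogdhl 0.67 and Acss1 2.30. For ubiquitin ligases, transcription factors and natriuretic peptide genes they were Trim63 3.73, Trim54 3.74, Cavin4 2.41, Tbx20 1.51, Tbx5 1.99, Zfpm2 2.91, Nppa 4.29 and Corin 2.28. Other muscle genes gave Myzap 1.5, Adprhl1 2.41, Asb14 2.19, Myl7 3.80 and Sln 3.42. Matrix genes and markers of other cells gave Fbn1 0.36, Sparc 0.55, Dcn 0.99, Mfap5 2.85, Cd93 0.88, Kdr 0.95, Cspg4 2.58, Mrc1 0.53, Hba-a1 1.93 and Hbb-bs 1.74. Genes with few or no reads under the BL/6J nucleus gave Ifi202b 1.07, H2-Ea-ps 0.81, Mmrn1 0.98, Hamp2 1.57, Atp6v0c-ps2 0.89 and Gm15772 0.62, and for these the value depends on the constant added before the logarithm. Gstp1 moved further down on C57 mtDNA, at -0.95. With 3 pools a group, no pool was tested as an outlier. The recovered reads gave fewer genes for the difference between heart and liver, 1835 by edgeR and 1917 by DESeq2, and the cause was not tested.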

How the results depend on the processing

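With library totals the genes called were 1634 higher and 8950 lower (from 3052 and 1813), 9135 for the difference between mtDNAs (from 1550), 8634 for heart minus liver (from 3859) and 1507 in opposite directions (from 148). Without the 20 largest genes in the totals they were 5072 lower, 4263, 6283 and 375, and with quantile normalisation 3507 were lower. A minimum value of 10, which leaves fewer genes to test, gave 1864 higher, and a fit of the 6 livers alone, with fewer libraries to estimate the spread, 2392 genes called in liver (from 3670). On recovered reads edgeR gave 1835 and DESeq2 1917 for heart minus liver, and the cause was not tested. In the comparison on C57 mtDNA they called 2971 and 2632 higher and 2267 and 1649 lower. Leaving out each library in turn gave 2577 to 2877 higher and 1333 to 1583 lower genes, 1283 to 1687 for the difference between mtDNAs, 3197 to 4680 for heart minus liver, 3044 to 3998 on NZB mtDNA, 2729 to 4457 in liver, 2023 to 2323 the same on both mtDNAs, 788 to 935 also in liver and 110 to 150 in opposite directions. With library totals Tpm1 was -0.42, Pdia6 -0.15, Manf -0.02 and Wdfy1 -0.49, and with quantile normalisation Tpm1 was -1.40, all against positive differences on the authors' scale. Atp2a2, not called on that scale, was called lower at -0.67, -0.31 and -1.58 with the 3 rescalings, and Nnt at -0.68, -0.31 and -0.28. Same-numbered pools of NZB:C57 and BL/6J:C57 hearts had correlations of deviations of -0.04, 0.02 and -0.02, and pools of unlike number -0.03 to 0.05. Whether same-numbered pools share a batch was not tested. The fit with replicate block gave 2966 higher and 1658 lower. Depth limits low genes: with 0 of 3 libraries holding a read, a fold is only bounded from below.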

Other observations

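Of 26 glutathione S-transferase and drug metabolism genes, 9 fell and 3 rose (median -0.22), against 16 and 1 on NZB mtDNA. Gstp1, a glutathione S-transferase, was 54.3, 47.2 and 54.7 in BL/6J:C57 and 17.4, 18.0 and 17.2 in NZB:C57 hearts (log2 difference -1.51, SE 0.09, limma adjusted p = 8.01e-10). On NZB mtDNA it went from 57.2 ± 6.61 to 38.4 ± 2.86, a smaller fall, and the difference of differences was -0.95 (SE 0.13, limma adjusted p = 6.96e-05). Ephx2, soluble epoxide hydrolase, was 319.9, 288 and 327 in BL/6J:C57 and 158, 154 and 163 in NZB:C57 (difference -0.97). Antioxidant and NADPH enzymes had 11 of 31 lower and 4 higher (median -0.17), and Gstp1 belongs to both lists.

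Circadian clock genes changed in both directions, 7 of 19 higher and 8 lower (median 0.34, -0.21 with library totals), against 8 and 5 on NZB mtDNA. Arntl, the activator BMAL1, was 36.7, 30.4 and 23.1 in BL/6J:C57 and 14.9, 18.1 and 14.1 in NZB:C57, and on NZB mtDNA it fell from 31.4 ± 3.48 to 13.3 ± 1.08. Per3, a repressor of the loop, was 4.92, 8.11 and 8.68 in BL/6J:C57 and 33.8, 25.0 and 15.2 in NZB:C57, and on NZB mtDNA it rose from 8.59 ± 1.36 to 24.4 ± 3.43. The labels used here give no time of day for the dissections. Lists not described so far were mtDNA maintenance and expression (0 higher and 5 lower of 27, median -0.16), mitochondrial import, chaperones and dynamics (1 higher and 18 lower of 31, median -0.23), ketone and amino acid use (3 higher and 6 lower of 15, median -0.10), proteasome (0 higher and 7 lower of 31, median -0.12) and RNA polymerase II and splicing core (0 higher and 2 lower of 29, median -0.03). Among inflammatory lists were acute phase reactants and metallothioneins (3 higher and 3 lower of 12, median 0.35, 0.05 with library totals, 0.02 with quantile normalisation and -0.02 without a filter on low values) and B and plasma cell markers (2 higher and 0 lower of 8, median 0.18, -0.16 with library totals and -0.14 with quantile normalisation). Complement and coagulation had 14 higher and 0 lower of 27 genes that passed the filter on low values. The median of these 27 was 0.50, and -0.02 with library totals. It was 0.39 without the filter and 0.17 for genes that reach a value of 10 in 3 libraries. The ATF4 and mitochondrial stress list had 4 higher and 3 lower of 16, and its median of 0.19 was -0.32 with library totals, -0.24 for genes that reach a value of 10 in 3 libraries, -0.01 without the 20 largest genes and -0.04 with quantile normalisation. The 4 Y-linked genes of these male pools were not called by limma (median -0.10).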
